A study of Macaca mulatta with 6 samples.

Results

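CA12, CXCL12 and PIM1 are genes known from work on human cells to respond to estrogen. Their transcripts were followed here in cells laser-captured as serotonin neurons from rhesus macaques, in material that also held transcripts of other cell types. Every probe set annotated with exactly 1 of these symbols was taken, which gave 4 for CA12, 3 for CXCL12 and 1 for PIM1, 8 of the 52766 on the array that are not controls and 3 of 14132 genes named there by a single symbol. The genes were selected on their differences between estrogen and placebo in these same arrays, so their values in that comparison describe them and were not tested. Of the 8 probe sets, 4 passed a filter on low signals (a mean over the 6 arrays at or above the median of all probe sets) and 4 did not. For each gene the probe set with the highest mean among those that passed is called its main probe set.

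The arrays measured RNA of cells cut from the dorsal raphe nucleus of female monkeys, 1 animal per array. Steroid capsules had been under the skin for 1 month. The groups were estrogen with progesterone (2 monkeys), estrogen alone (2 monkeys) and placebo (2 monkeys). Ovx in the placebo titles was taken to mean ovariectomized, and the ovarian status of the hormone-treated animals is not stated in the labels. Age and steroid dose are not given there either.

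Estrogen acts in cells mainly through the nuclear receptors ESR1 and ESR2, which bind DNA at estrogen response elements or through other transcription factors, and also through the membrane receptor GPER1. CA12 encodes a carbonic anhydrase of the cell surface that interconverts carbon dioxide and bicarbonate, and in human breast cancer cells its gene is a direct ESR1 target. CXCL12 encodes a secreted chemokine that signals through CXCR4 and is also bound by ACKR3, and in the brain it guides migrating neurons and is made by vascular, meningeal and some neural cells. PIM1 encodes a serine/threonine kinase that promotes survival and cell cycle progression and is induced by cytokines through JAK and STAT proteins.

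The arrays stood apart in quality. Each array was given a floor from its 59 control probe sets that are neither hybridization nor housekeeping controls, taken here as negative controls. The floor, below which 95% of them lay, was at signals of 74.9 and 283 with both hormones, 30.0 and 51.6 with estrogen, and 216 and 221 with placebo. The share of probe sets above it was 49.6% and 28.7% with both hormones, 62.2% and 58.5% with estrogen, and 37.3% and 36.3% with placebo. The GAPDH control probe sets gave a 3′ to 5′ signal ratio of 21.97 on estrogen+progesterone 1, 28.0 and 3.41 on the estrogen arrays, and at least 266 on estrogen+progesterone 2 and at least 343 and 498 on the placebo arrays, where the 5′ probe set was below the floor. The array estrogen+progesterone 2 correlated with its group partner at 0.000477 over the 26383 probe sets that passed the filter. Differences that use it are therefore followed by their value without it for the 8 probe sets, the lists and the other genes named with a difference from it. The placebo arrays correlated with each other at 0.5179, while placebo 2 correlated with estrogen+progesterone 1 at 0.5175. The estrogen arrays correlated with each other at 0.862. Floor and 3′ to 5′ ratio both differed between the estrogen and the placebo arrays, and their part in the differences between those groups was not tested.

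CA12 had its highest signals with estrogen alone. The main CA12 probe set (MmugDNA.12574.1.S1_s_at) read 99.9 and 277 with both hormones, 352 and 464 with estrogen, and 84.7 and 18.9 with placebo. Both estrogen arrays lay above all other arrays. It reached 11.7 and 8.98 times the floor with estrogen and 1.33 times the floor on estrogen+progesterone 1. On estrogen+progesterone 2 it was just below the floor, and on both placebo arrays well below it. Among all probe sets of an array, it ranked at the 59.3th and 70.4th percentile with both hormones, the 83.0th and 86.3th with estrogen, and the 32.6th and 7.45th with placebo.

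The other CA12 probe sets did not all share this order. MmuSTS.2176.1.S1_at read 39.7 and 35.4 with both hormones, 107 and 412 with estrogen, and 43.1 and 138 with placebo. It was above the floor on the estrogen arrays alone, and its estrogen and placebo signals overlapped as deposited. MmugDNA.30480.1.S1_at read 5.33 and 65.5 with both hormones, 56.1 and 100.1 with estrogen, and 11.95 and 17.9 with placebo, again above the floor only with estrogen. The fourth, MmugDNA.3215.1.S1_at, read 35.6 and 78.9 with both hormones, 56.7 and 118 with estrogen, and 304 and 102 with placebo. Its highest signal was on placebo 1, above the floor, so it did not follow the other 3. Across all 4 CA12 probe sets, both estrogen arrays exceeded the floor, while no probe set did so on both arrays of the combined treatment or on both placebo arrays. Of all probe sets, 62.2% and 58.5% were above the floor with estrogen, 49.6% and 28.7% with both hormones, and 37.3% and 36.3% with placebo. The floors were unequal, at 30.0 and 51.6 with estrogen and 216 and 221 with placebo. The estrogen signals of MmugDNA.30480.1.S1_at and MmugDNA.3215.1.S1_at were below both placebo floors, as was that of MmuSTS.2176.1.S1_at on estrogen 1.

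CXCL12 had its lowest main signals with estrogen. Its main probe set read 196 and 457 with both hormones, 114 and 82.5 with estrogen, and 561 and 449 with placebo. It was the one probe set of the 8 above the floor on all 6 arrays, a state shared by 10.1% of all probe sets. Both placebo arrays and both arrays of the combined treatment lay above both estrogen arrays, and estrogen+progesterone 2 lay between the placebo arrays. Measured against each array's own floor, the signal was 2.61 and 1.615 times the floor with both hormones, 3.80 and 1.598 times with estrogen, and 2.596 and 2.04 times with placebo, and on that scale the 3 groups overlapped. By rank it stood at the 74.8th and 90.5th percentile with both hormones, the 67.2th and 55.1th with estrogen, and the 93.5th and 89.8th with placebo.

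The 2 further CXCL12 probe sets were mostly below the floor. The second, annotated to the same sequence record as the main probe set, read 6.32 and 462 with both hormones, 8.16 and 17.5 with estrogen, and 239 and 25.9 with placebo. It was above the floor on estrogen+progesterone 2 and on placebo 1 only, and the 2 arrays of the combined treatment were its lowest and its highest. The third, from another record, read 181 and 53.8 with both hormones, 7.40 and 52.8 with estrogen, and 217 and 36.6 with placebo. Its groups of estrogen and placebo overlapped. The annotation does not say which strand or transcript each CXCL12 probe set detects. Whether the main signal comes from the coding strand is therefore not known.

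PIM1 was above the floor on all 4 hormone arrays and on neither placebo array. Its only probe set (MmugDNA.13285.1.S1_at) read 84.1 and 316 with both hormones, 119.8 and 121 with estrogen, and 66.2 and 33.5 with placebo. Every hormone array lay above both placebo arrays. The margin over the floor was small with both hormones, at 1.12 times on each array, and larger with estrogen, at 3.996 and 2.34 times. Each array was judged by its own floor, and the floors were unequal. Of all probe sets, 14.8% were above the floor on both estrogen arrays and on neither placebo array. The share that was also above it on both combined arrays was not computed. PIM1 signals on both estrogen arrays and on estrogen+progesterone 1 were below the floors of the placebo arrays (216 and 221). Its ranks were the 54.0th and 76.5th percentile with both hormones, the 68.1th and 64.5th with estrogen, and the 28.4th and 17.0th with placebo.

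**Figure D1:**
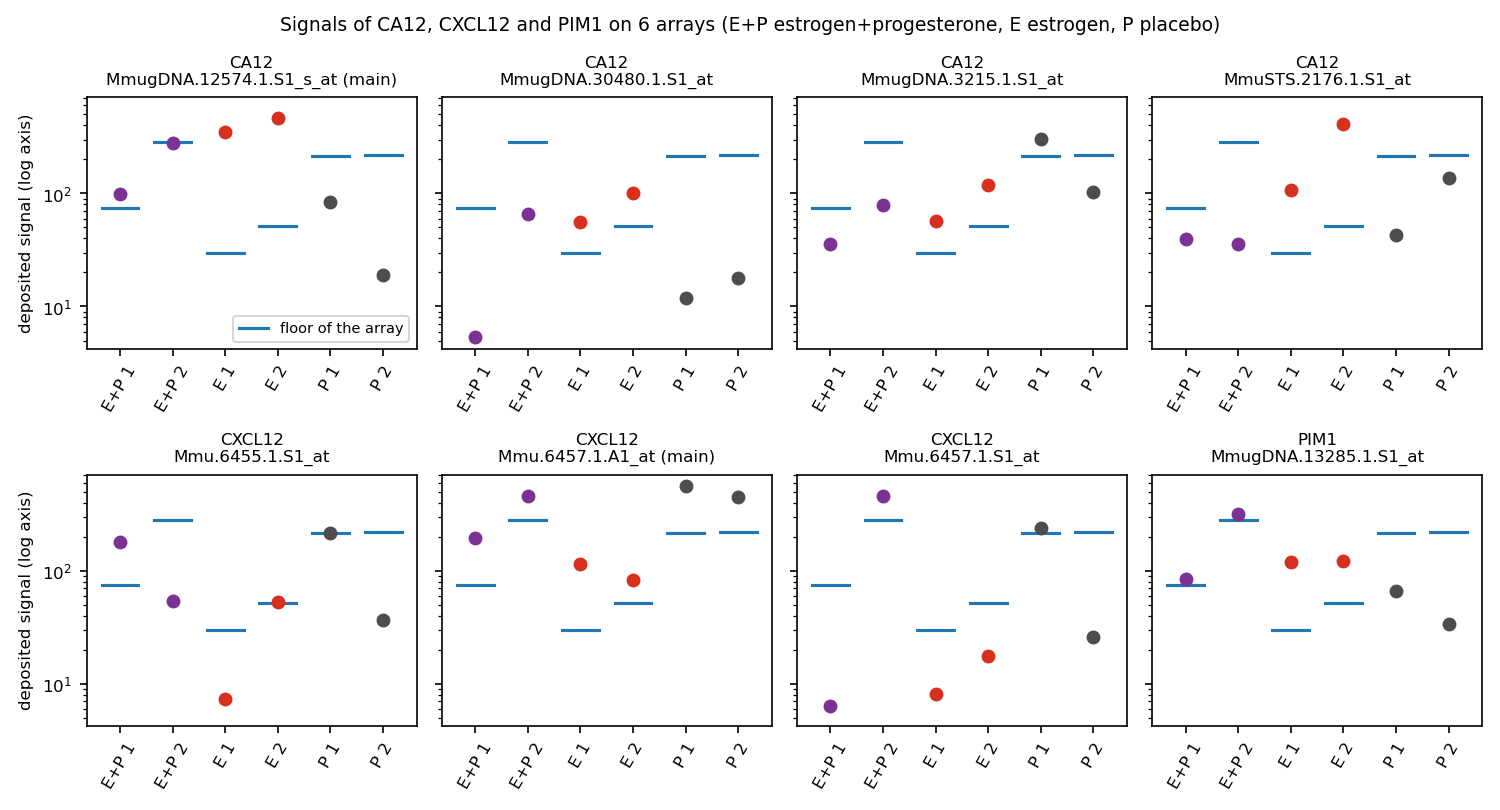
Deposited signal (log axis) of the 8 probe sets of CA12, CXCL12 and PIM1 on each of the 6 arrays, 1 point per monkey, with a blue line at the floor of that array. The main CA12 points are highest on the 2 estrogen arrays at 352 and 464, and the main CXCL12 points lowest there at 114 and 82.5. PIM1 lies above the array's own floor on the 4 hormone arrays and below it on both placebo arrays. The floors are 30.0 and 51.6 with estrogen and 216 and 221 with placebo.

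For comparison between groups the signals were taken to log2 after adding 16 and quantile normalized, and limma fitted the 3 group means together. Errors given with differences are its standard errors, with 2 monkeys per group. None of the 4 member probe sets that passed the filter passed the test in either comparison below, where the share of all 26383 tested probe sets with adjusted p under 0.05 was 0%. The placebo and estrogen arrays entering these tests also served in choosing the genes, so the tests are not independent of the choice, and the 3 comparisons share arrays with each other.

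The combined treatment against placebo asks what both hormones together did. CA12 had a normalized log2 mean of 7.51 ± 0.35 with both hormones and 5.45 ± 0.93 with placebo (SD, n = 2 each), a log2 difference of 2.06 ± 0.86 (SE), with a 95% interval of 0.14 to 3.97. PIM1 averaged 7.57 ± 0.74 with both hormones and 5.56 ± 0.45 with placebo (SD, n = 2 each), a difference of 2.02 ± 0.84 (SE) with an interval of 0.14 to 3.90. CXCL12 averaged 8.58 ± 0.83 with both hormones and 9.32 ± 0.32 with placebo (SD, n = 2 each), a difference of -0.74 ± 0.85 (SE) with an interval of -2.64 to 1.16. The unadjusted limma p was 0.0378 for CA12 and 0.0381 for PIM1, and 3.3% of the tested probe sets had one below 0.05. Adjusted p was 0.992 for all 3 genes. CA12 and PIM1 were low on the placebo arrays used in choosing them, which favors differences above 0, so these p-values and intervals are no independent support. Their placebo means were also below the filter value of 6.81, so both passed it through their signals on the hormone arrays. PIM1, below the floor on both placebo arrays, had a mean with both hormones at least 1.11-fold higher when placebo was set to the floor. That bound uses both combined arrays, at normalized log2 values of 7.05 and 8.095, and it rests on estrogen+progesterone 2. On placebo 1 a signal at 1.004 times the floor had a normalized value of 7.404, above the 7.05 of PIM1 on estrogen+progesterone 1. The deposited PIM1 signal on estrogen+progesterone 1 (84.1) was below both placebo floors (216 and 221). CA12 has no such bound because 1 of the 2 combined arrays was below the floor. Without estrogen+progesterone 2 the log2 differences were 1.78 for CA12, 1.47 for PIM1 and -1.46 for CXCL12. Leaving out that array thus moved CXCL12 away from 0 and the other 2 genes toward it.

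The other probe sets of CA12 and CXCL12 varied in sign. The second CA12 probe set that passed, MmugDNA.3215.1.S1_at, stood at -1.21 ± 0.90 (SE, adjusted p = 0.992 from limma), the sign opposite to the main one. The 2 CA12 probe sets that did not pass gave 0.60 for MmugDNA.30480.1.S1_at and -0.42 for MmuSTS.2176.1.S1_at, and the second and the third of CXCL12 gave 0.67 and 0.40, opposite in sign to their main probe set. Several of these rested on estrogen+progesterone 2. Without it the second CXCL12 probe set was -1.54, on the side of the main one, and the third 1.59, while in CA12 MmuSTS.2176.1.S1_at was 0.089, MmugDNA.30480.1.S1_at 0.011 and MmugDNA.3215.1.S1_at -1.25. Of all 8 probe sets, 5 were above 0 and 3 below, against 49.6% and 50.4% of all 52766. After normalization 2 had both combined arrays above both placebo arrays and 1 had both below, against 13.9% and 14.2% of all.

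The combined treatment against estrogen alone asks what progesterone added. CA12 averaged 7.51 ± 0.35 with both hormones and 8.65 ± 0.18 with estrogen (SD, n = 2 each), a log2 difference of -1.15 ± 0.86 (SE) with a 95% interval of -3.06 to 0.77. The other CA12 probe sets were on the same side, at -1.19 for MmugDNA.3215.1.S1_at, -1.90 for MmugDNA.30480.1.S1_at and -2.46 for MmuSTS.2176.1.S1_at. CA12 was chosen on estrogen minus placebo, where its main probe set was high with estrogen, and that choice itself favors values below 0 here. In all 4 probe sets of this 1 gene, both arrays of the combined treatment lay below both estrogen arrays after normalization, against 16% of all 52766 probe sets. On deposited signals that held for 2 of the 4, the main one and MmuSTS.2176.1.S1_at, and the groups of the other 2 overlapped. Without estrogen+progesterone 2 the 3 further probe sets were at -1.19 (MmugDNA.3215.1.S1_at), -2.45 (MmugDNA.30480.1.S1_at) and -2.01 (MmuSTS.2176.1.S1_at). MmuSTS.2176.1.S1_at was lower by at least 1.68-fold with the combined arrays set to their floor. That bound compares normalized means and was not computed without estrogen+progesterone 2. As deposited, the signal on estrogen 1 (107) was below the floor of estrogen+progesterone 2 (283). No CA12 probe set was called, and limma gave an adjusted p of 0.799 for the main one and for MmugDNA.3215.1.S1_at, the 2 that were tested.

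CXCL12 went the other way in that comparison. Its main probe set was low with estrogen in the comparison used for choosing it, so the choice favors that direction too. Its main probe set averaged 8.58 ± 0.83 with both hormones and 7.35 ± 0.36 with estrogen (SD, n = 2 each), a difference of 1.23 ± 0.85 (SE) with an interval of -0.67 to 3.14 and adjusted p = 0.799 from limma. The second and the third CXCL12 probe sets gave 1.64 and 0.89, and without estrogen+progesterone 2 they gave -0.56 and 2.08. All 3 were above 0, as were 49.9% of all probe sets, and all 4 of CA12 below, as were 50.1%. The main one alone had both combined arrays above both estrogen arrays after normalization, against 19.1% of all, and 1.76% of tested probe sets had an unadjusted p below 0.05. PIM1 averaged 7.57 ± 0.74 with both hormones and 7.56 ± 0.12 with estrogen (SD, n = 2 each), a difference of 0.013 ± 0.84 (SE) whose interval ran from -1.87 to 1.89, with adjusted p = 0.998. Without estrogen+progesterone 2 the differences were -1.52 for CA12, 0.69 for CXCL12 and -0.53 for PIM1.

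The comparison of estrogen with placebo is the one on which the genes were chosen. CA12 averaged 8.65 ± 0.18 with estrogen and 5.45 ± 0.93 with placebo, PIM1 averaged 7.56 ± 0.12 with estrogen and 5.56 ± 0.45 with placebo, and CXCL12 averaged 7.35 ± 0.36 with estrogen and 9.32 ± 0.32 with placebo (SD, n = 2 each). The other 3 CA12 probe sets differed by 2.50 (MmugDNA.30480.1.S1_at), 2.03 (MmuSTS.2176.1.S1_at) and -0.019 (MmugDNA.3215.1.S1_at) on the log2 scale. MmugDNA.3215.1.S1_at was 0.91 without placebo 1 and -1.003 without placebo 2. The second CXCL12 probe set stood at -0.98 and the third at -0.49, and both were above 0 without placebo 1, at 0.31 and 0.54. Of the 8 probe sets 4 were above 0 and 4 below, where the shares of all were 48.7% and 51.3%, and 7.83% of tested probe sets had an unadjusted p below 0.05 and 0% an adjusted one. After normalization 4 of the 8 probe sets had both estrogen arrays above both placebo arrays and 1 had both below, where the shares of all 52766 probe sets were 23.8% and 24.9%. Being above the floor on both estrogen arrays and on neither placebo array held for 4 of the 8, and for 14.8% of all probe sets.

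**Figure D2:**
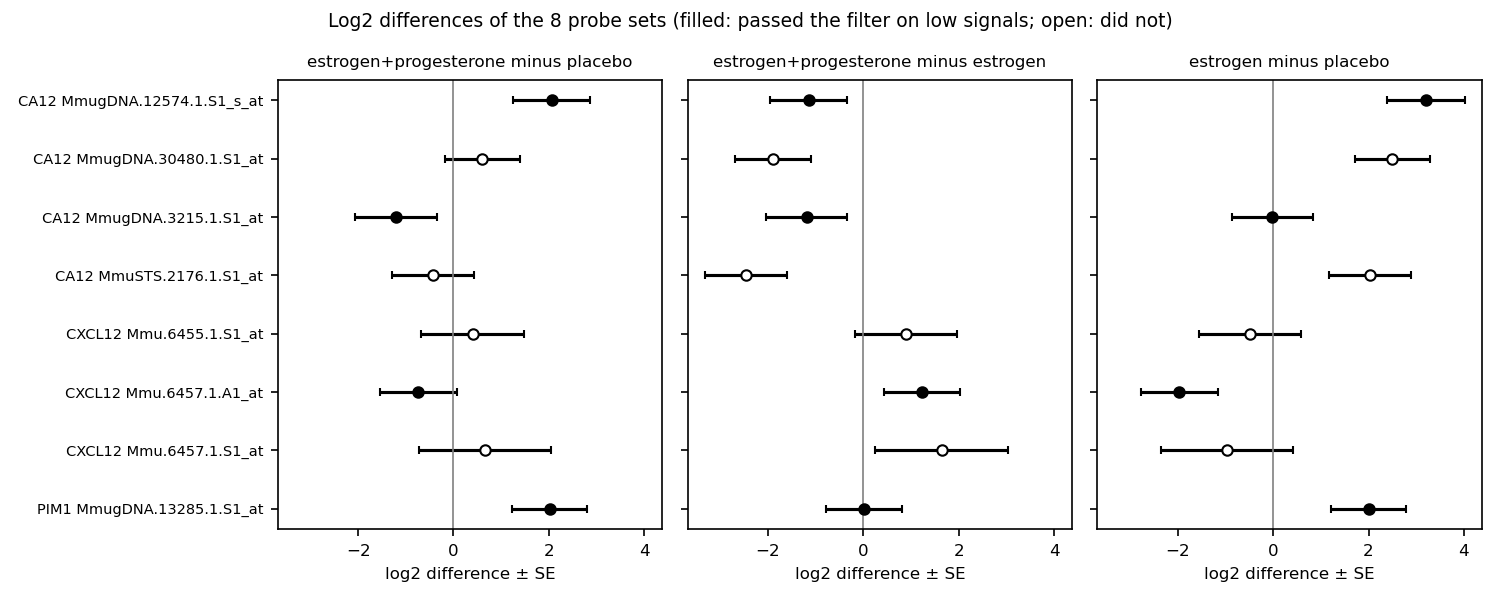
Log2 differences with their standard errors for the 8 probe sets in 3 comparisons, with filled points for those that passed the filter and open points for those that did not; errors are from a fit of all 52766 probe sets. In the combined treatment minus estrogen, all 4 CA12 points are below 0 and all 3 CXCL12 points above it, while in the combined treatment minus placebo the CA12 points lie between -1.21 and 2.06.

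How the arrays were brought to one scale changed the size of these differences, and for CXCL12 and PIM1 the sign of some. For estrogen minus placebo, CXCL12 stood at -2.20 on deposited values, at -0.95 with the arrays centred on their medians and at 0.03 with the arrays scaled to their 27 hybridization controls, labelled transcripts added in fixed amounts. The geometric mean of those controls was 6186 and 31260 with both hormones, 3701 and 4603 with estrogen, and 19740 and 24180 with placebo. The same choices moved the median of all tested probe sets, to 2.19 with the hybridization controls, against 0.17 after quantile normalization. Relative to that median, CXCL12 stood at -2.14 after quantile normalization, -2.10 on deposited values, -2.10 after centring and -2.16 with the controls. CA12 stood at 3.04, 2.92, 2.92 and 2.59 above the median in the same 4 settings, and PIM1 at 1.84, 1.19, 1.19 and 0.85. The values on deposited signals and after centring are equal by construction, since subtracting the median undoes the centring, and all are values on which the genes were chosen.

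**Figure D3:**
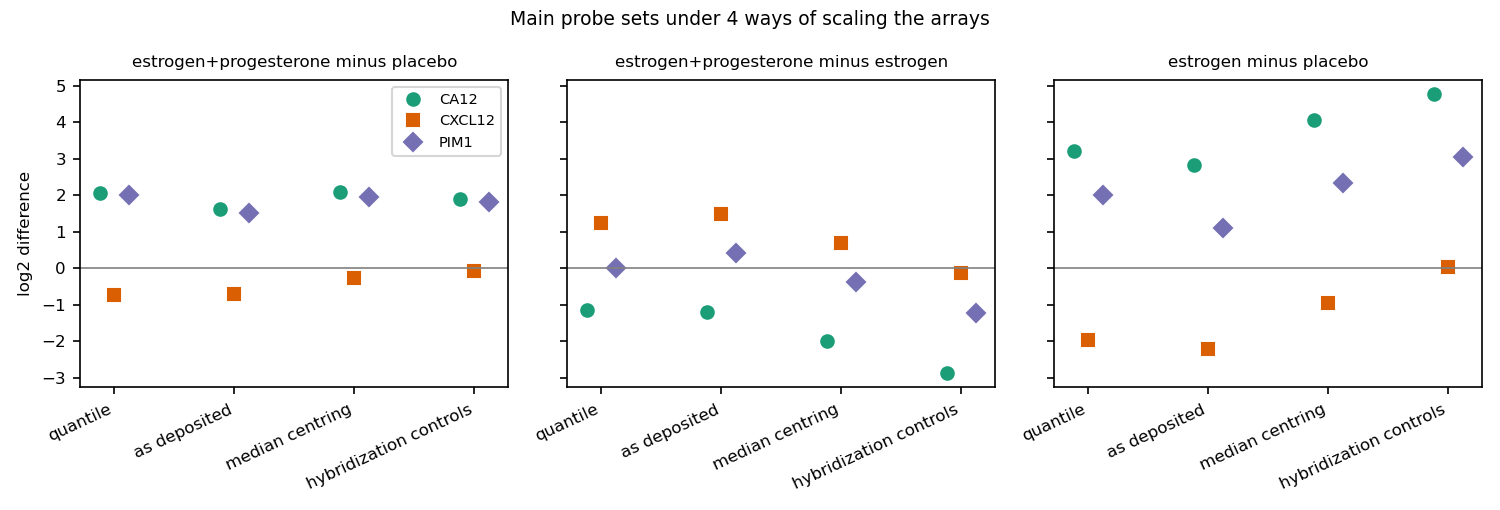
Log2 difference of the main probe sets of CA12, CXCL12 and PIM1 in 3 comparisons under 4 scalings of the arrays (quantile normalization, deposited values, median centring, scaling to hybridization controls). In estrogen minus placebo CA12 runs from 2.83 to 4.78 and PIM1 from 1.10 to 3.04, all above 0, while CXCL12 runs from -2.20 to 0.03.

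The captured material held transcripts of several cell types, and in such bulk RNA fewer cells of a type cannot be told apart from less RNA per cell. Of 7 serotonin neuron markers named on the array, 4 and 3 were above the floor with both hormones, 5 and 6 with estrogen, and 3 and 4 with placebo. Their summed signal was 1412 and 2074 with both hormones, 1558 and 898 with estrogen, and 1879 and 1666 with placebo. SLC6A4, DDC and MAOB have no named probe set here. The 8 named astrocyte markers, of 10 listed, had a summed signal of 77000 and 3878 with both hormones, 66760 and 76820 with estrogen, and 22000 and 23610 with placebo, with 7 and 5, 7 and 8, and 6 and 6 of them above the floor. All 7 astrocyte markers that passed the filter were above 0 in estrogen minus placebo, with a median log2 difference of 1.16, the direction of CA12 and PIM1 there, where 60.6% of all tested genes were above 0 with a median of 0.28. The median there was 0.61 for 5 neuron markers, 0.16 for 4 oligodendrocyte markers and 0.17 for 10 microglia markers. For the 4 serotonin neuron markers that passed the filter it was -0.54, with 1 above 0 and 3 below. It was 0.72 for 4 endothelial and mural markers, with 2 above 0 and 2 below. In both hormones minus estrogen, where CA12 was lower, 66% of all tested genes were below 0 with a median of -0.44, and so were all 7 astrocyte markers (median -1.25), all 4 oligodendrocyte markers (-1.60), all 5 neuron markers (-0.53) and 9 of 10 microglia markers (-0.64). Without estrogen+progesterone 2 those medians were -0.056, -0.11, -0.096 and -0.11, and that of all genes 0.052, while the main CA12 probe set was at -1.52. The 4 serotonin neuron markers had 2 above 0 and 2 below in both hormones minus estrogen (median 0.18). The 4 endothelial and mural markers had 1 above and 3 below (median -0.52). Without that array the medians of these 2 lists were 0.38 and 0.58. Of the 10 endothelial and mural markers, a cell class that makes CXCL12, 7 were named, with a summed signal of 1323 and 1062 with both hormones, 819 and 931 with estrogen, and 974 and 1414 with placebo. Of those, 4 and 1 were above the floor with both hormones, 5 and 5 with estrogen, and 2 and 3 with placebo, and FLT1 and KDR on no array. The part of these cell types in the differences of the 3 genes was not tested.

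The receptors through which estrogen could reach these genes gave low signals. ESR1 never exceeded the floor, reading 46.3 and 26.2 with both hormones, 14.9 and 10.8 with estrogen, and 93.4 and 27.6 with placebo. ESR2, by the highest of its 3 probe sets, exceeded it with estrogen (63.4 and 95.3) and on placebo 2 (247). GPER1 exceeded it on estrogen+progesterone 1 (80.7) and both estrogen arrays (73.9 and 63.4). None of the 3 receptor genes passed the filter, so none was tested.

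Among the other carbonic anhydrases, 11 of 14 listed genes were named and 8 tested, and none passed in any comparison. In estrogen minus placebo 5 were above 0 and 3 below, with a median of 0.55, against 0.28 for all 9781 genes tested. CA4, an enzyme anchored on the outer membrane, had the largest difference of the 8. It read 234 and 236 with both hormones, 128 and 809 with estrogen, and 74.6 and 31.0 with placebo, and differed by 2.96 ± 0.92 (SE) for estrogen minus placebo and 2.21 ± 0.92 for both hormones minus placebo, with adjusted p of 0.635 and 0.992 from limma. CA4 was 2.65 above placebo when estrogen+progesterone 2 was left out. Only these estrogen signals and that of estrogen+progesterone 1 exceeded the floor. CA14, another membrane-bound member, stood at 0.70 ± 0.99 and -0.081 ± 0.99 in the same comparisons (adjusted p = 0.854 and 0.998), and 1.03 for both hormones minus placebo without that array. Of 6 tested genes of bicarbonate, proton and lactate transport, 3 were above 0 and 3 below in estrogen minus placebo, with a median of 0.15, and none passed in any of the 3 comparisons.

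Of the receptors of CXCL12, ACKR3 was tested and did not pass, and CXCR4 was not tested. CXCR4, its signaling receptor, read 56.8 and 68.4 with both hormones, 69.4 and 65.3 with estrogen, and 293 and 62.2 with placebo. With estrogen and on placebo 1 it exceeded the floor, and it did not pass the filter. ACKR3, the atypical receptor that takes up the chemokine, read 368 and 191 with both hormones, 427 and 199.9 with estrogen, and 338 and 411 with placebo, above the floor on every array but estrogen+progesterone 2. Its differences were -0.83 ± 0.89 for both hormones minus placebo, -0.49 ± 0.89 for both hormones minus estrogen and -0.34 ± 0.89 for estrogen minus placebo (SE, adjusted p = 0.992, 0.872 and 0.926 from limma). Leaving out estrogen+progesterone 2 gave -0.049 and 0.33 in the comparisons of the combined treatment. DPP4, a protease that clips and inactivates CXCL12, was below the floor on all 6 arrays. Of the 4 tested genes of the CXCL12 pathway (ACKR3, ARRB2, PTK2 and RAC1), none passed in any comparison, and all 4 were below 0 in both comparisons that use the combined treatment, with medians of -0.92 and -0.95 against -0.0996 and -0.44 for all genes. Without estrogen+progesterone 2, 4 were below 0 against placebo and 2 against estrogen, with medians of -0.42 and 0.034 against 0.33 and 0.052 for all genes.

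PIM3, the other PIM kinase named on the array, was above the floor on all 6 arrays. It read 629 and 413 with both hormones, 594 and 664 with estrogen, and 685 and 410 with placebo, and so did not share the low placebo signals of PIM1. Its difference was -0.39 ± 0.83 for both hormones minus placebo and -0.32 ± 0.83 for estrogen minus placebo (SE, adjusted p = 0.992 and 0.926 from limma), and -0.28 for both hormones minus placebo without estrogen+progesterone 2. Upstream, STAT5B stood at 0.50 ± 0.96 for estrogen minus placebo (adjusted p = 0.896), while 2 further tested probe sets of it gave -0.26 and -0.83. STAT3 exceeded the floor with estrogen and on estrogen+progesterone 2, STAT5A on estrogen 2 alone, and neither passed the filter. Of the PIM kinase substrates and downstream genes listed, 6 were tested, with 3 above 0 and 3 below for estrogen minus placebo and none past the threshold in any comparison. BAD and PIM2 have no named probe set here.

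Of 30 further estrogen-responsive genes listed, 26 were named and 20 tested, and none passed in any comparison. In both hormones minus placebo 8 were above 0 and 12 below (median -0.046, all genes -0.0996), in both hormones minus estrogen 7 and 13 (median -0.61, all genes -0.44), and in estrogen minus placebo 13 and 7 (median 0.36, all genes 0.28). When estrogen+progesterone 2 was left out, 16 were above 0 and 4 below against placebo (median 0.53, all genes 0.33) and 13 and 7 against estrogen (median 0.094, all genes 0.052). GREB1, an early ESR1 target, read 838 and 127 with both hormones, 787 and 262 with estrogen, and 314 and 161 with placebo, and differed by 1.16 ± 1.10 for estrogen minus placebo (SE, adjusted p = 0.774 from limma). XBP1, a transcription factor of the unfolded protein response, gave 1.92 ± 1.25 there (adjusted p = 0.694). MYC at -0.92 ± 0.86 and CCND1, which encodes cyclin D1, at -0.91 ± 0.95 were on the other side (adjusted p = 0.771 and 0.798). PGR, the progesterone receptor gene and a classic estrogen target, read 21.4 and 351 with both hormones, 2.61 and 4.84 with estrogen, and 134 and 313 with placebo. Only estrogen+progesterone 2 and placebo 2 exceeded the floor, and PGR did not pass the filter. TFF1 has no named probe set here.

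**Figure D4:**
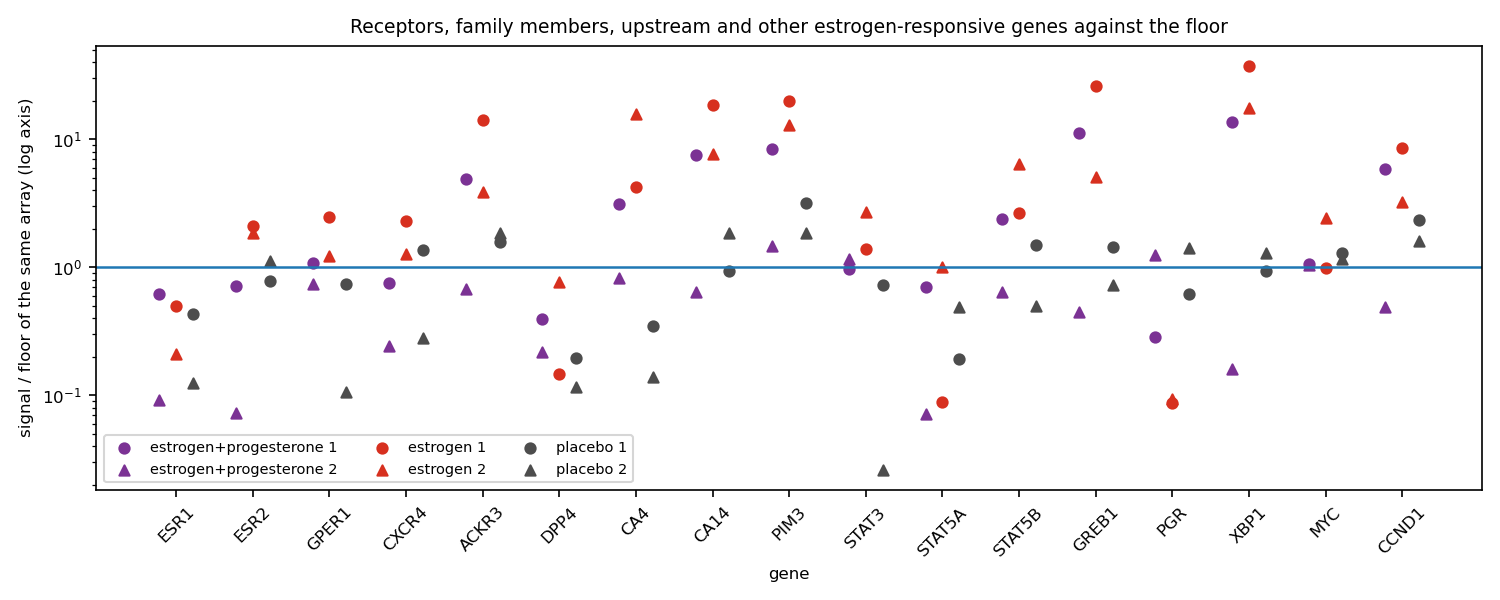
Signal divided by the floor of the same array (log axis) for estrogen receptors, chemokine receptors, family members, upstream STAT genes and other estrogen-responsive genes, 1 point per array with circles for monkey 1 and triangles for monkey 2 of a group, and a line at the floor. ESR1 and DPP4 lie below the line on all 6 arrays and PIM3 above it on all 6.

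The genes most like each of the 3 across the 6 arrays were ranked by Pearson r of normalized log2 values against 9129 other named genes, as a description. For CA12 they were NFKBIE, an inhibitor of NF-kappa-B (r = 0.994), SRSF10, a splicing factor (0.986), and SNCAIP, which encodes the synuclein partner synphilin (0.983). For CXCL12 they were TNFRSF13B, a receptor of the tumor necrosis factor family (0.998), the transcription factor gene MECOM (0.994) and GDF5, a growth factor (0.99). For PIM1 they were EXOSC9, a subunit of the RNA exosome (0.997), the small GTPase gene RAB20 (0.994) and ATF2, a stress-activated transcription factor (0.987). An r above 0.95 was reached by 25 genes for CA12, 69 for CXCL12 and 37 for PIM1. All points share the same 6 arrays with their unequal floors.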

How the data were processed

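The authors deposited 1 linear intensity per probe set and array. After trimming 2% at each end every array averaged 200, so values had been scaled per array, as the values show; the summarization software is not given in the sources used here. Of 52766 probe sets other than the 99 controls, 24956 had 1 gene symbol, 361 several and 27449 none in GEO's platform annotation, and 24616 matched the RefSeq gene table by gene number. The array's genome build is not named, so no positions are given.

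Groups came from the sample titles. Values were quantile normalized as log2(value + 16) without controls, filtered at the 50th percentile of the mean (26383 kept) and fitted with limma 3.58.1 in R 4.3.3, with 1 mean per group, 3 residual degrees of freedom, two-sided moderated tests and Benjamini-Hochberg adjustment over all tested probe sets at 0.05. An exact permutation test of 2 against 2 cannot go below 0.333 and was not used. Precision is limited by 2 animals per group. List genes were counted once, through the brightest tested probe set. A bound sets each dim array to the higher of its floor and its own value.

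The members, lists and rule for named genes (the 3 genes, a fixed set of partner genes, and the 3 most similar genes each) were chosen with earlier results of these data known. The fit was tested on simulated data. Alternatives varied the offset, scaling, filter, weights, replicate block and arrays used; scaling to hybridization controls, and lists without estrogen+progesterone 2, were chosen after seeing the data.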

Additional observations from a re-analysis of the deposited data

How the results depend on the processing

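Across 16 alternatives CA12 (main probe set) and PIM1 kept their sign in both comparisons with placebo, 1 of which the genes were chosen on. CA12 also kept it in both hormones minus estrogen, and CXCL12 in both hormones minus placebo. The other filters, the replicate block and the array weights left every difference unchanged in this balanced design, so they could not change a sign. With no array left out, the limma adjusted p of these genes, where tested, was never below 0.343. For estrogen minus placebo CA12 was 2.24 with an offset of 64, 3.98 with 1, 4.07 with median centring and 4.78 with scaling to hybridization controls, and 2.66 to 3.94 when 1 array was left out. PIM1 was 1.30 with offset 64, 2.52 with offset 1, 1.10 without quantile normalization and 3.04 with hybridization controls, and CXCL12 was -0.95 with median centring and 0.031 with hybridization controls, and -2.36 to -1.59 with 1 array left out. Both hormones minus estrogen reversed for CXCL12 with hybridization controls (-0.12), and for PIM1 with median centring (-0.38) and hybridization controls (-1.21); leaving out 1 array gave PIM1 -0.53 to 0.51. The cause was not tested.

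By limma 0 probe sets were called in each comparison, with 2065 at an unadjusted p under 0.05 in estrogen minus placebo, 870 in both hormones minus placebo and 464 in both hormones minus estrogen. Array weights called 434 in estrogen minus placebo, and leaving out 1 array called 0 to 3599 in both hormones minus estrogen, the highest without estrogen+progesterone 1, where the lone remaining array is assumed to vary like the other groups. The differences between replicates 1 and 2 had r from -0.063 to 0.082 between groups. That cannot decide whether the numbers pair the animals, since arrays correlated weakly within the combined (0.000477) and placebo (0.518) groups. The fit with the replicate block called 0 in each comparison, as without it. It left CA12, PIM1 and CXCL12 at 2.06, 2.02 and -0.74 for both hormones minus placebo. Those values were fixed in advance, since each group holds 1 array of each replicate number. Signals near or below the floor, which include all CA12 and PIM1 placebo main values, limit what these arrays can resolve.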
